A study of Bos taurus with 8 samples.

Results

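The genes described here encode the nuclear-encoded proteins of the mitochondrial respiratory chain, complexes I to IV, and of the ATP synthase, complex V, in the epithelium of the bovine rumen. Members were all array genes whose name on the array starts with NDUF, SDHA, SDHB, SDHC, SDHD, UQCR, CYC1, COX4, COX5, COX6, COX7, COX8 or ATP5. This rule used names only and took 91 genes with 92 probes, of 14952 gene names and 15008 probes on the array. A probe that the scanner software called well above background on 4 or more of the 8 arrays was required for testing, and 82 of the 91 genes had one. They comprised 38 of 43 genes of complex I, all 6 of complex II, all 9 of complex III, 14 of 17 of complex IV and 15 of 16 of complex V. The prefixes also take 9 assembly factors, proteins that help build a complex without staying in it.

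The control was a high-grain diet, and the WP diet replaced 50% of its corn flakes with wood kraft pulp, a fibre made mostly of cellulose. The animals were Holstein bulls with a rumen fistula, aged 7.4 ± 0.3 months and weighing 215.2 ± 20.4 kg, and 5 bulls in the study received both diets in turn for 14 days each, without a wash-out period. Arrays of 4 of them were analysed here, numbered calves 21, 23, 24 and 25, so each diet had 4 one-colour arrays from the same 4 calves. Which diet a calf received first was not known here, so diet and feeding period cannot be told apart within a calf.

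Complex I passes electrons from NADH, and complex II from succinate, to ubiquinone. Complex III hands them to cytochrome c and complex IV to oxygen. Complexes I, III and IV pump protons across the inner mitochondrial membrane, and the ATP synthase uses their return to make ATP. The rumen epithelium takes up short-chain fatty acids and oxidises much of its butyrate in mitochondria, and it spends ATP on active ion transport. Complexes I, III, IV and V also contain a few subunits encoded by the mitochondrial genome, which are described after the nuclear genes.

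A level is log2 of the scanner's background-corrected signal minus the 75th percentile of that array, so 0 means as bright as that percentile. A difference is WP minus control within a calf on this log2 scale. A level serves to describe how bright a probe is and does not rank the abundance of different genes. The arrays had 9314 to 11990 probes above background, and no spot was saturated. On the WP array of calf 24, negative control spots had a median signal of 4.06 against 1.20 to 1.90 on the other arrays, and the viral E1A control probes read 40.7 against 1.36 to 1.97. All 14 tested marker genes of stratified rumen epithelium were above background on all 8 arrays. The arrays lay in 2 rows of one slide. Row 1 held WP of calves 21 and 23 and control of calves 24 and 25, and row 2 held the opposite.

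Each gene was read by a probe of 60 bases, and what a value means depends on that probe. The following probes, printed 5′ to 3′ in the sense of the transcript, carry results described below: 4 read catalytic subunits, and the fifth carries a gene name that its position does not bear out.
NDUFS1: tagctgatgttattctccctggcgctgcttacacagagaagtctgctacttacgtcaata
NDUFS8: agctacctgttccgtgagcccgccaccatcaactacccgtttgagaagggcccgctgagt
SDHA: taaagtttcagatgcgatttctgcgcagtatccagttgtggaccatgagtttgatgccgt
ATP5B: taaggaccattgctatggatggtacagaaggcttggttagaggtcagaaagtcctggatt
COX6B1 (chromosome 5): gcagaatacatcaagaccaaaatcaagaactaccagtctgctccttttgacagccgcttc

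On the array design's assembly, UMD 3.1, the probe of NDUFS1 lies at chr2:94896583-94896642 on the minus strand and that of NDUFS8 at chr29:46206701-46206760 on the plus strand. The SDHA probe covers chr20:71955136-71956157 on the minus strand, 60 bases spread over 1022 bases of genome. The ATP5B probe lies at chr5:57120965-57121024 on the plus strand. Each of these sequences has at least 1 forward reading frame without a stop. NDUFS1, SDHA and ATP5B probes have 27 G or C bases of 60 (45.0%) and the NDUFS8 probe has 36 (60%). Exon and UTR annotation of this assembly was not used here.

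No gene passed the adjusted threshold of 0.05 between the diets, among the 82 members or among all 10236 probes tested (0.0% called), by limma with Benjamini-Hochberg adjustment over all probes. The smallest adjusted p was 0.658 for the members and for all probes. At an unadjusted p under 0.05, 1 member (1.22%) stood out, against 715 of all probes (6.99%). That member was lower on WP, as were 1.75% of all probes at that p, while 5.24% were higher. The members' differences were small: 67 of 82 (81.7%) lay within 0.2 of 0. They leaned to lower values on WP, with 54 of 82 negative (65.9%), whereas 35.6% of all tested probes were negative. The median difference was -0.05 over the members and 0.09 over all tested probes. With quantile scaling the negative shares were 67.1% of members and 52.5% of all tested probes, and with cyclic loess scaling 73.2% and 50.7%.

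The lean differed between the calves. The members' median difference was 0.05 and 0.08 in the first pair of calves, 21 and 23, and -0.07 and -0.27 in calves 24 and 25, respectively. Calf 25 had the most negative values of the 4 calves, with 72 of 82 members lower on WP (87.8%), where all tested probes split evenly (50% negative). In calf 24, 56 members were lower (68.3%), against 35.9% of all tested probes, while 34 (41.5%) were lower in calf 21 and 28 (34.1%) in calf 23, against 40.0% and 46.5%. The WP array of calf 24 had raised control spots. Of the 3739 tested probes with a mean level above 0, 1715, 1809, 2089 and 1921 were negative in calves 21, 23, 24 and 25. Of the 63 members with such a level, 27, 20, 50 and 62 were. The mean of the 4 calf medians was -0.05 with an SD of 0.16, so the members' shift was smaller than its spread between calves. Without calf 25 the members' median was 0.0036, with 39 of 82 negative (47.6%), and the medians of complexes I to V were -0.02, 0.02, -0.0045, 0.15 and 0.08.

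**Figure D1:**
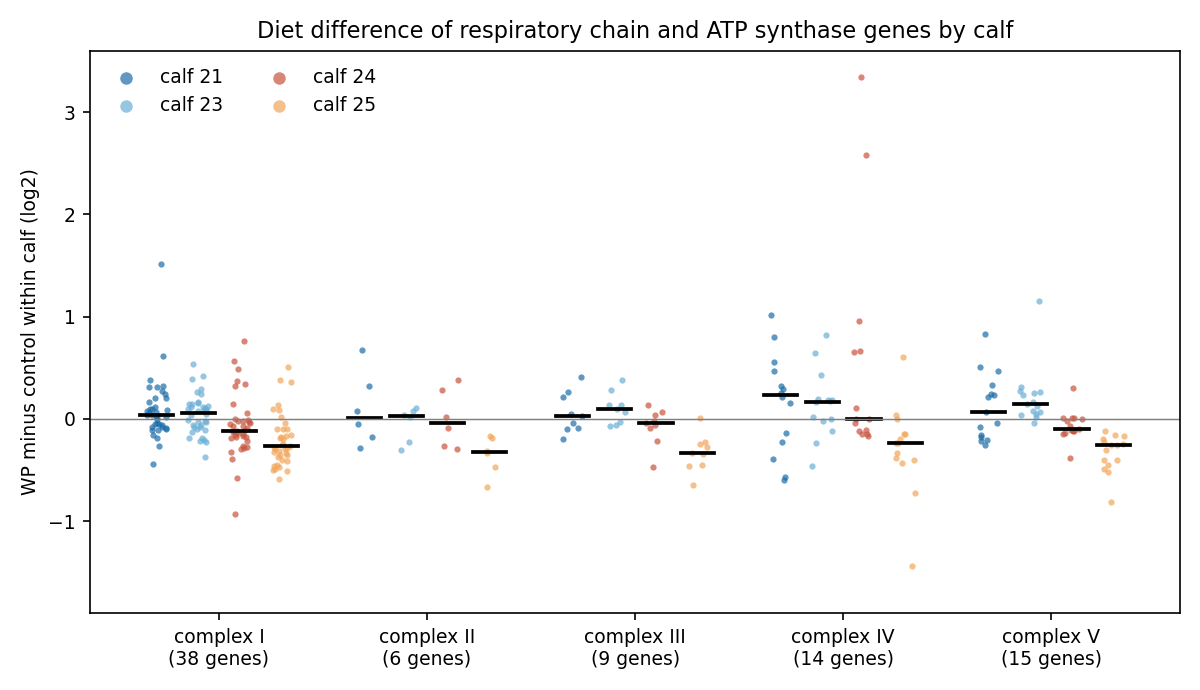
WP minus control difference (log2) of each of the 82 tested genes within each calf, grouped by complex, with 1 point per gene and black bars at the medians. In calf 25 the medians of all 5 complexes lie below 0, from -0.34 to -0.23, while in calves 21 and 23 all 5 lie above 0.

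Most members had bright probes, and the direction of the difference went with probe brightness. Of the 82 tested members, 63 had a mean level above 0 and 76 were above background on all 8 arrays, as were 59.2% of all probes of the array. Among the 63 bright members, 49 were lower on WP, with a median of -0.09, while all 3739 tested probes of the array with a mean level above 0, not matched further in brightness, had a median of 0.0013, 1862 of them negative. Among the other 19 members, 5 were negative and the median was 0.17. In calf 25, 62 of the 63 bright members had lower values on WP. The part of probe brightness in these directions was not tested.

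Seen array by array, the WP array of calf 25 was the lowest and the control array of the same calf the highest. With each gene centred on its own mean over 8 arrays, the members' median was -0.17 on the WP array of calf 25, where 12 of 82 genes were above their mean. It was 0.11 on that calf's control array, where 67 of 82 were above. The other arrays lay between -0.07, on the control array of calf 21, and 0.07, on the control array of calf 24. The bright probes of the array, centred the same way, stood at 0.03 and 0.04 on the WP and control arrays of calf 25.

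Slide row coincided with this pattern. With calf in the fit, the row coefficient compares the diet differences of calves 21 and 23 with those of calves 24 and 25. A row effect and a different diet response of these pairs of calves therefore cannot be told apart. Because the diet order was not known, an effect of feeding period cannot be told apart from them either. In a fit with calf, diet and row, 66 of 82 members were higher in row 1 (80.5%), against 45.6% of all tested probes. The median row difference was 0.12 over the members and -0.03 over all probes. By limma no probe passed the adjusted threshold for row (0.0% called), while 3 members (3.66%) and 1320 probes (12.9%) had an unadjusted p under 0.05. These 3 members were the ATP synthase subunit ATP5E, the flavoprotein NDUFV1 and the iron-sulphur protein SDHB, all higher in row 1. In 26 members (31.7%) the diet difference was positive in calves 21 and 23 and negative in calves 24 and 25, the sign pattern of row, a pattern shown by 10.7% of all probes. The reverse pattern was found in 1 member (1.22%) and in 10.5% of all probes. Row is balanced over diets and calves, so the mean diet difference over 4 calves holds equal numbers of both row directions.

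**Figure D2:**
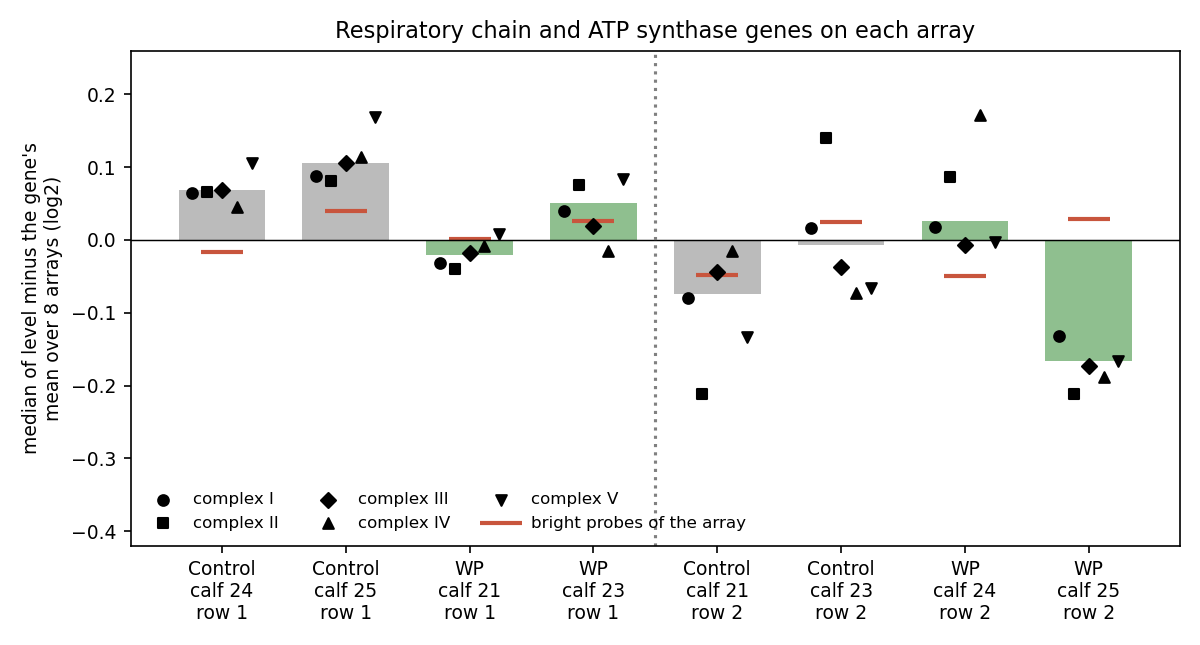
Median over the members (bars, green for WP and grey for control) and over each complex (symbols) of the level minus the gene's mean over 8 arrays (log2), for each array, with row 1 left of the dotted line. Red marks show the same median over all tested probes with a mean level above 0. The bar of the WP array of calf 25 is the lowest at -0.17 and the control array of calf 25 the highest at 0.11.

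In complex I, 28 of 38 tested genes had a negative difference and the median was -0.08. The core subunits, which carry the flavin and the iron-sulphur clusters, were negative in 7 of 7 genes, with a median of -0.10 and a range from -0.21 to -0.02. By calf, in the order 21, 23, 24 and 25, their medians were 0.08, 0.15, -0.16 and -0.40. The supernumerary subunits, which surround the core and stabilise it, were negative in 17 of 25 genes with a median of -0.09.

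NDUFS8, a core subunit with iron-sulphur clusters near the ubiquinone site, was lower on WP in all 4 calves. Its levels were 3.36, 3.32, 3.27 and 3.25 on control and 3.31, 3.09, 3.11 and 2.84 on WP in calves 21, 23, 24 and 25. The groups overlapped only through calf 21, whose WP level exceeded the control levels of calves 24 and 25. The mean difference was -0.21 ± 0.15 (SD, n = 4 calves), which is a 1.16-fold stronger signal on control, with an adjusted p of 0.663 by limma.

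NDUFS1, the largest core subunit, gave the smallest spread among the named genes. Its levels were 1.61, 1.74, 1.76 and 1.52 on control and 1.53, 1.66, 1.69 and 1.35 on WP in the same order of calves. All 4 differences were negative and between -0.18 and -0.07, with a mean of -0.10 ± 0.05 (SD, n = 4). The groups overlapped, since the calves differed more from each other than each differed between diets. NDUFV1, the core subunit that binds NADH, gave -0.07 ± 0.38 (SD, n = 4), with positive differences in calves 21 and 23 and negative ones in calves 24 and 25.

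NDUFS4, an accessory subunit of the NADH-oxidising module, was 1 of 2 members (2.44%) whose WP and control values did not overlap, against 4.86% of all probes. Its levels were 3.03, 3.12, 3.06 and 3.25 on control and 2.99, 3.02, 2.77 and 2.99 on WP. The mean difference was -0.17 ± 0.12 (SD, n = 4), with an adjusted p of 0.674 by limma. NDUFA7, an accessory subunit, was the other. Its levels were -1.96, -1.95, -2.10 and -2.04 on control and -1.84, -1.87, -1.53 and -1.53 on WP, a mean difference of 0.32 ± 0.26 (SD, n = 4) with an adjusted p of 0.658 by limma. Nearly all of it came from calves 24 and 25, at 0.57 and 0.51, while calves 21 and 23 gave 0.12 and 0.07. The NDUFA7 probe was dim, and the WP array of calf 24 had raised control spots. With 1 calf left out at a time, its difference was 0.23 or more.

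NDUFC1, a small membrane subunit, had the largest positive difference in complex I. Its levels were -3.00, -2.71, -2.36 and -2.29 on control and -1.48, -2.29, -1.86 and -2.27 on WP. The differences were 1.52, 0.42, 0.49 and 0.02, so calf 21 gave most of the mean of 0.61 ± 0.64 (SD, n = 4), with an adjusted p of 0.658 by limma. Without calf 21 the difference was 0.31. Its probe, at chr17:18699974-18700033, was the only one of the 92 with a stretch matching probes of other genes.
NDUFC1 probe, bases 3 to 32: tcacaaagagtcagacacgacctagcaact
These 30 bases matched probes of 2 other genes at 86.7% identity. Of all probes of the array, 2.34% had a match of at least 24 bases and 80% identity. How far other transcripts reach this probe was not tested. NDUFB2, another accessory subunit, gave 0.26 ± 0.19 (SD, n = 4), positive in calves 21, 24 and 25 and at -0.03 in calf 23.

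A difference of 1 sign in all 4 calves was found for 11 members lower on WP (13.4%, against 5.41% of all probes) and for 4 members higher on WP (4.88%, against 12%). Among the 3739 tested probes with a mean level above 0, 332 were lower and 292 higher in 4 of 4 calves. Among the 63 members with such a level these counts were 9 and 0. Complex I held 8 of the 11: NDUFS8, NDUFS1, NDUFS4, NDUFV3, NDUFA10, NDUFA8, NDUFA2 and the assembly factor DMAC2, named ATP5SL on the array. Their mean differences ran from -0.21 to -0.10. The remaining 3 were SDHA, NDUFA4L2 and NDUFA4. The 4 higher members were NDUFC1, NDUFA7, UQCRB and COX8B. All 15 had adjusted p-values of at least 0.658 by limma. Of the other assembly factors, SDHAF1, which serves complex II, gave -0.17 ± 0.18 and NDUFAF4, which serves complex I, gave 0.11 ± 0.44 (SD, n = 4), which turned to -0.01 with cyclic loess scaling and -0.11 without calf 24.

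**Figure D3:**
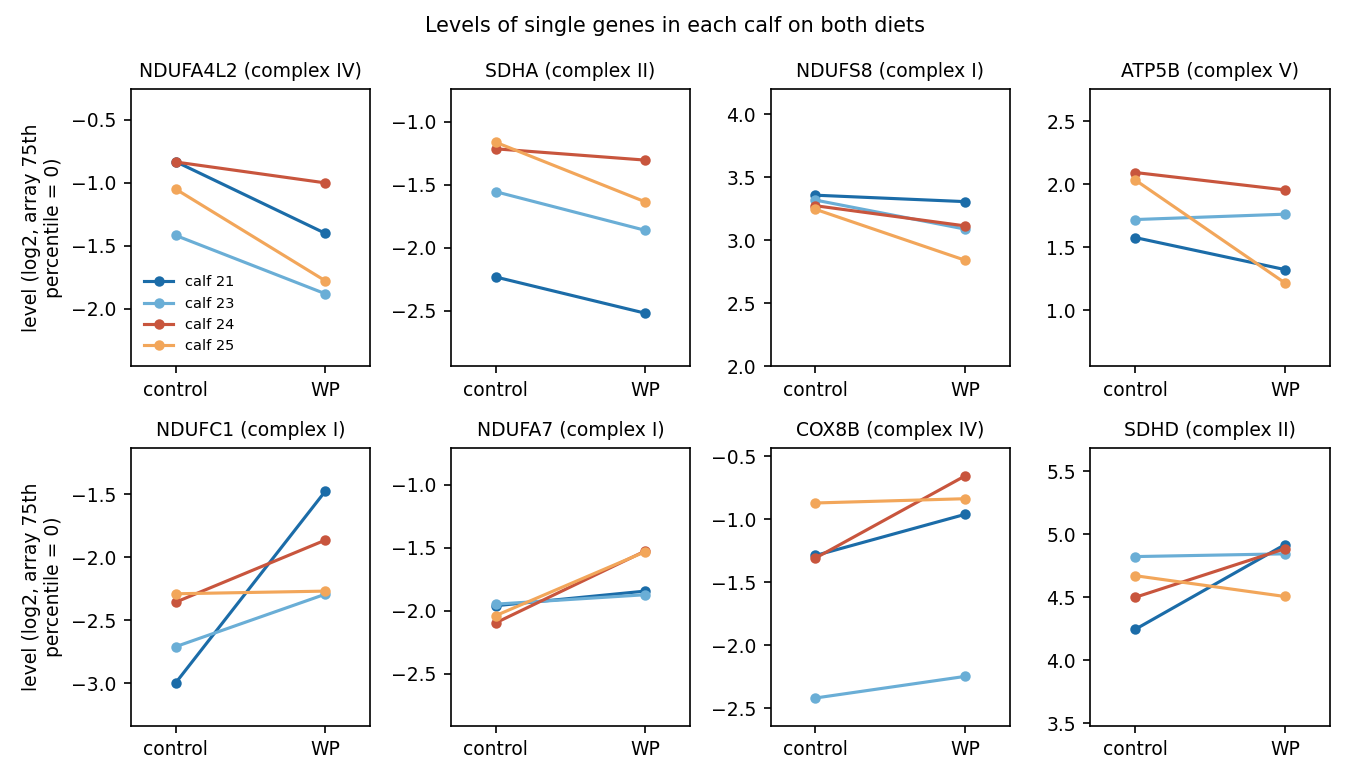
Levels (log2 relative to the array's 75th percentile) of 8 genes on control and WP, with 1 line per calf. All panels span the same number of log2 units. NDUFA4L2, SDHA and NDUFS8 have 4 lines that slope down, NDUFC1, NDUFA7 and COX8B have 4 that slope up, and ATP5B and SDHD have lines of both directions.

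In complex II, 5 of 6 genes had a negative difference and the median was -0.11. SDHA, the flavoprotein that oxidises succinate, was lower on WP in every calf. Its levels were -2.23, -1.56, -1.22 and -1.16 on control and -2.52, -1.86, -1.30 and -1.64 on WP. Calf 21 was lowest on both diets, and the groups overlapped. The mean difference was -0.29 ± 0.16 (SD, n = 4; 95% interval -0.60 to 0.02), with an adjusted p of 0.658 by limma. Because the calves' levels spread widely, the comparison of unpaired arrays within row 2 turned its sign to 0.42, and within row 1 it was -1.0. With normexp background correction the paired difference was -0.07.

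The 2 membrane anchors and the iron-sulphur protein of complex II did not share that pattern. SDHD, an anchor, had levels of 4.25, 4.82, 4.50 and 4.67 on control and 4.92, 4.84, 4.88 and 4.51 on WP. It was higher on WP in 3 of 4 calves, with a mean difference of 0.23 ± 0.37 (SD, n = 4). SDHC, the other anchor, gave -0.08 ± 0.27 and SDHB, the iron-sulphur protein, -0.13 ± 0.44 (SD, n = 4). SDHB was positive in calves 21 and 23 and negative in calves 24 and 25, and without calf 25 its mean was 0.04.

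In complex III, 7 of 9 genes had a negative difference and the median was -0.06. UQCRFS1, the Rieske iron-sulphur protein, had levels of 5.57, 5.46, 5.62 and 5.60 on control and 5.48, 5.56, 5.41 and 5.26 on WP, a mean difference of -0.14 ± 0.19 (SD, n = 4). UQCR11, a small accessory subunit, gave differences of 0.03, 0.14, -0.47 and -0.45 by calf. The core proteins UQCRC1 and UQCRC2 gave -0.17 ± 0.34 and -0.06 ± 0.21, and CYC1, cytochrome c1, gave -0.03 ± 0.19 (SD, n = 4). UQCRB, a subunit at the ubiquinone site, was above background on 2 WP and 4 control arrays. It was higher on WP in 4 of 4 calves at a mean of 0.17 ± 0.18 (SD, n = 4), and this turned to -0.53 with quantile scaling and -0.40 with cyclic loess scaling.

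Complex IV was the one complex with a positive median, 0.05, and 5 of 14 tested genes were negative. The sign of this median was not stable: it was -0.02 with normexp background correction, -0.07 without calf 21 and -0.0064 without calf 23. Complex IV has several subunits that exist as a common form and a second form of another gene, known from heart and skeletal muscle, testis or oxygen-poor tissue. The dim second forms COX4I2, COX7B2, COX6A2, COX8B and COX6B2 were positive, at 1.11, 0.63, 0.38, 0.30 and 0.09, and dim NDUFA4L2 gave -0.48. The tested complex IV genes with a mean level above 0 lay between -0.16 and 0.12. COX7B2, a testis form, was above background on 2 WP and 2 control arrays, with an SD of 1.64.

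NDUFA4L2, a paralogue of the complex IV subunit NDUFA4 that is known as a target of hypoxia-inducible factor, was the member with an unadjusted p under 0.05. Its probe lies at chr5:56539257-56539316. Levels were -0.83, -1.42, -0.83 and -1.05 on control and -1.40, -1.88, -1.0 and -1.78 on WP in calves 21, 23, 24 and 25. Each calf was lower on WP, by -0.57, -0.46, -0.17 and -0.73, and the groups overlapped through calf 23 on control and calf 24 on WP. The mean difference was -0.48 ± 0.24 (SD, n = 4; 95% interval -0.84 to -0.13), a 1.40-fold stronger signal on control. Its unadjusted p was 0.017 and its adjusted p 0.658 by limma. The sign was the same under all 17 alternatives, with values from -0.70 to -0.24. NDUFA4 itself gave -0.14 ± 0.18 (SD, n = 4), with -0.39 and -0.15 in calves 21 and 24 and less than 0.005 below 0 in the others.

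Of the oxygen-dependent pair of subunit 4, COX4I1, the common form, was at 5.04, 5.44, 5.40 and 5.39 on control and 5.25, 5.63, 5.40 and 5.16 on WP, a mean difference of 0.04 ± 0.21 (SD, n = 4). COX4I2, the form known from lung and oxygen-poor tissue, was dim. It passed background on 3 arrays of WP and 1 of control, with levels of -4.98, -5.85, -5.81 and -5.59 on control and -5.12, -5.21, -2.46 and -4.99 on WP. Its mean difference of 1.11 ± 1.53 (SD, n = 4) rested on the WP array of calf 24, the array with raised control spots, and was 0.37 without calf 24.

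COX8B, known in cattle as the heart form of subunit 8, was above background on all 8 arrays and higher on WP in 4 of 4 calves. Its levels were -1.29, -2.42, -1.31 and -0.87 on control and -0.96, -2.25, -0.66 and -0.84 on WP. The groups overlapped, with calf 23 lowest on both diets, and the mean difference was 0.30 ± 0.27 (SD, n = 4) with an adjusted p of 0.658 by limma. It turned to -0.51 in the unpaired comparison within row 1. The largest COX8B difference, 0.65, was in calf 24, whose WP array had raised control spots. COX6A2, the muscle form of subunit 6A, was above background on all 8 arrays at -3.50, -2.75, -3.61 and -3.15 on control and -2.49, -2.99, -2.65 and -3.34 on WP, a difference of 0.38 ± 0.70 (SD, n = 4) that was 0.03 with quantile scaling and 0.17 with cyclic loess scaling. COX7A1, the muscle form of subunit 7A, was not well above background on any array.

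Of 6 striated muscle markers, MB, CKM and ACTA1 were tested and MYH7, MYH2 and TNNT3 were not above background on 4 arrays. A summed level is log2 of the sum of the markers' unlogged levels, so the brightest marker weighs most in it. The summed level of the 3 tested markers, of which ACTA1 was the brightest, ranged from -1.98 to -0.87 on WP and from -2.10 to -1.46 on control. MB, CKM and ACTA1 were each highest on the WP array of calf 24. The part of muscle RNA in the values of COX8B and COX6A2 was not tested.

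The common forms of the other complex IV subunits differed little. COX5B gave less than 0.001 below 0 with an SD of 0.20, COX6A1 gave 0.0039 ± 0.28, COX7A2 gave -0.16 ± 0.21 and COX7A2L, which is known to join complexes III and IV, gave 0.05 ± 0.38 (SD, n = 4). COX6B2, a testis form, was above background on all 8 arrays and gave 0.09 ± 0.57 (SD, n = 4). With normexp background correction the differences of COX4I1, COX6A1 and COX7A2L turned to values just below 0, and COX6B2 turned to -0.02 with quantile scaling and -0.03 with cyclic loess scaling. COX6B1 was read by 2 probes that disagreed. The probe at chr18:46574257-46574316 gave 0.80, -0.03, -0.12 and -0.15, a mean of 0.12 ± 0.45, because the control array of calf 21 was low at 5.74 where the other 7 arrays lay between 6.33 and 6.53. The probe printed above, at chr5:94363872-94363931, gave -0.03, 0.03, -0.17 and -0.37, a mean of -0.13 ± 0.18 (SD, n = 4). RefSeq places the gene COX6B1 on chromosome 18, so what the chromosome 5 probe reads is uncertain, and the gene is represented by the other.

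In complex V, 9 of 15 genes had a negative difference, the median was -0.05 and all 15 were negative in calf 25. All 15 were higher in row 1, with a median row difference of 0.19. ATP5B, the catalytic beta subunit now named ATP5F1B, had levels of 1.58, 1.72, 2.09 and 2.03 on control and 1.32, 1.76, 1.96 and 1.22 on WP. The differences were -0.25, 0.04, -0.14 and -0.82, so the mean of -0.29 ± 0.37 (SD, n = 4) came mainly from calf 25, with an adjusted p of 0.667 by limma and -0.12 without that calf. The alpha subunit ATP5A1, now ATP5F1A, gave -0.05 ± 0.32 and the gamma subunit ATP5C1, now ATP5F1C, -0.09 ± 0.18 (SD, n = 4).

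Among the parts of the ATP synthase in and at the membrane, ATP5G1, now ATP5MC1, is 1 of the genes that encode the subunit of the rotating ring. Its levels were 5.56, 5.01, 5.69 and 5.61 on control and 5.35, 5.27, 5.31 and 5.12 on WP, a difference of -0.21 ± 0.33 (SD, n = 4). ATP5G2, now ATP5MC2, is a second gene for the same subunit and was added after its values were seen. It gave 0.06 ± 0.43 (SD, n = 4), higher on WP in 3 of 4 calves. ATP5E, the small epsilon subunit now named ATP5F1E, was above background on 3 WP and 4 control arrays. It was higher on WP in calves 21 and 23, by 0.83 and 1.16, and slightly lower in calves 24 and 25, a mean of 0.43 ± 0.66 (SD, n = 4) that turned to -0.36 with quantile scaling and -0.08 with cyclic loess scaling.

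The 9 members that were not tested were NDUFA1, NDUFA5, NDUFA11, NDUFB1, NDUFB4, COX5A, COX7A1, COX8A and ATP5G3. The first 8 were not well above background on any array and ATP5G3 was on 1. The median signal of the COX5A probe was 1.61 and its highest 12, on the WP array of calf 24, which gave the highest signal for 8 of the 9. COX5A, COX8A and NDUFA1 encode obligatory subunits, while probes of other subunits of the same complexes were well above background. All 9 probes were designed on a single cDNA read. Of the members' 18 probes designed on such reads 9 passed the filter (50%), compared with 66 of 66 designed on RefSeq transcripts, 2 of 2 on Ensembl transcripts and 6 of 6 on other records. On the whole array 68.2% of probes passed: 177 of 428 designed on single reads (41.4%) and 71.9% of those designed on RefSeq transcripts. A dim probe of these genes is therefore a bound on that probe's signal and not a level of the gene. Of the tested genes read by single-read or other-record probes, ATP5E, COX4I2, COX8B, NDUFA3, NDUFA6, NDUFA7, NDUFB2, NDUFC1 and UQCRB had positive mean differences. The negative ones were ATP5J2, COX5B, NDUFA4, NDUFC2, SDHC and UQCR11. The part of the design record in these directions was not tested.

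**Figure D4:**
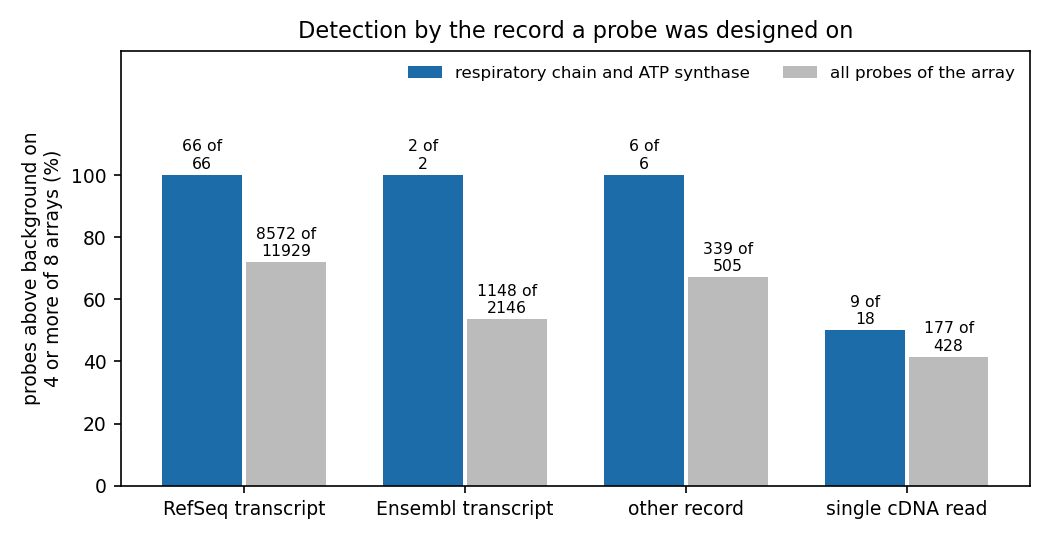
Percent of probes well above background on 4 or more of 8 arrays, by the sequence record the probe was designed on, for the members (blue) and for all probes of the array (grey), with counts above the bars. All members' probes passed except 9 of 18 designed on single cDNA reads.

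The mitochondrial genome encodes 13 further subunits of complexes I, III, IV and V, of which 11 were on the array under their own names and above background on all 8 arrays. None passed the adjusted threshold, but 11 of 11 had a positive mean difference, with a median of 0.25. Among all tested probes 6591 of 10236 were positive, at a median of 0.09. Among those with a mean level above 0, 1877 of 3739 were positive, at a median of 0.0013. With quantile or cyclic loess scaling 10 of the 11 mitochondrially encoded genes were positive, at medians of 0.12 and 0.24. The medians by calf were 0.67, 0.41, -0.0078 and -0.08, and the median row difference was 0.31. All 11 genes were positive in calves 21 and 23, whose WP arrays lay in row 1, while calves 24 and 25 had both signs. The unpaired comparison of arrays within row 1 gave a median of 0.33 with 9 of 11 positive, and that within row 2 gave 0.21 with 11 of 11 positive. Without calf 21 the median was 0.12, with 8 of 11 positive.

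ATP8 and ATP6, neighbouring ATP synthase subunits on the mitochondrial genome, were higher on WP in 4 of 4 calves. ATP8 levels were 5.75, 6.05, 5.99 and 5.80 on control and 6.46, 6.34, 6.18 and 6.21 on WP, without overlap, as in 4.86% of all probes. Its mean difference was 0.40 ± 0.22 (SD, n = 4), with an unadjusted p of 0.032 and an adjusted p of 0.658 by limma. ATP6 gave 0.57, 0.32, 0.08 and 0.12, a mean of 0.27 ± 0.23 (SD, n = 4). Within each calf the median of the mitochondrially encoded genes exceeded that of the nuclear-encoded members, by 0.62, 0.33, 0.06 and 0.20 in calves 21, 23, 24 and 25, a mean of 0.30 ± 0.24 (SD, n = 4). With 4 calves a two-sided exact sign-flip test cannot give a p under 0.125, and none was run.

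Other mitochondrial gene groups were set beside the members, and none of their genes passed the adjusted threshold by limma. The TCA cycle with pyruvate enzymes, which supply NADH and succinate, had 12 of 19 genes negative, a median of -0.05 and a median of -0.38 in calf 25. A list of mitochondrial carriers, channels and electron-transfer proteins, which includes the outer-membrane VDAC channels and the matrix proteins ETFA and ETFB, had 14 of 18 negative and a median of -0.10. Among them SLC25A5, an ADP/ATP exchanger, was lower on WP in 4 of 4 calves at -0.47 ± 0.29 and SLC25A13, an aspartate-glutamate carrier, at -0.30 ± 0.17 (SD, n = 4). Without calf 25 the medians of these groups were 0.05 and 0.0013.

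Assembly factors outside the naming rule, listed together with the electron carrier CYCS, had 20 of 29 genes negative and a median of -0.05. COA3, a complex IV assembly factor, gave -0.39 ± 0.17 and HIGD1A, a hypoxia-inducible protein that binds complex IV, gave -0.48 ± 0.32 (SD, n = 4), both lower on WP in 4 of 4 calves. Their unadjusted p-values were 0.024 and 0.029 and both adjusted p-values 0.658 by limma. Protein import and chaperones had 15 of 22 genes negative and a median of -0.07. Mitochondrial ribosomal proteins had 48 of 72 negative and a median of -0.03, although MRPL12 gave 0.71 ± 0.42 (SD, n = 4). The MRPL12 probe was dim, above background on 4 WP and 3 control arrays, and differed most in calf 24, by 1.19. Without calf 25 these leans were gone: 15 of 29, 11 of 22 and 35 of 72 genes were negative in the 3 lists, with medians of -0.0007, -0.00089 and 0.0011. The assembly factor list also had 15 of 29 negative without calf 21 and without calf 23, and 24 of 29 without calf 24.

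Regulators of mitochondrial biogenesis leaned to higher values, with 15 of 17 tested genes positive and a median of 0.21. Of all tested probes 6591 of 10236 were positive, with a median of 0.09. With quantile scaling 12 of 17 were positive at a median of 0.10, against -0.02 for all tested probes. Without calf 24 these medians were 0.13 and 0.05. The part of probe brightness in this lean was not tested. POLRMT, the RNA polymerase of the mitochondrial genome, was dim and gave 0.76 ± 0.54, and SIRT3, a mitochondrial deacetylase, 0.37 ± 0.31 (SD, n = 4), both positive in 4 of 4 calves. The largest POLRMT difference, 1.36, was in calf 24, whose WP array had raised control spots. PPARGC1A, PPARGC1B, PPRC1 and ESRRG were not above background on 4 arrays.

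**Figure D5:**
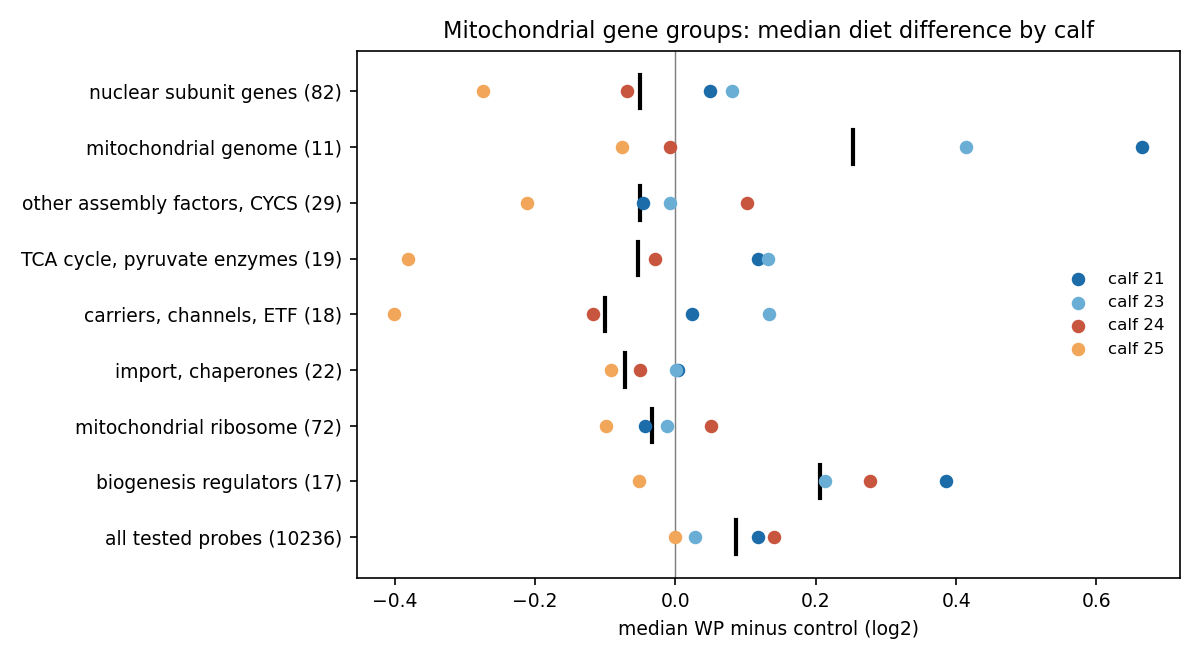
Median WP minus control difference (log2) of mitochondrial gene groups, with the number of tested genes in parentheses, coloured points for the 4 calves and black bars for the median of the mean differences. The nuclear-encoded subunit genes run from -0.27 in calf 25 to 0.08 in calf 23, and the genes of the mitochondrial genome from -0.08 in calf 25 to 0.67 in calf 21.

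Markers of other cell types of the rumen wall were set beside these values, and none passed the adjusted threshold by limma. Fibroblast markers were higher on WP in 9 of 10 genes with a median of 0.59, endothelial markers in 8 of 8 with 0.41 and smooth muscle markers in 5 of 5 with 0.46. In calf 21 the fibroblast and endothelial medians were negative, at -0.42 and -0.34. Their summed levels ranged from 4.22 to 5.48 on WP and 3.35 to 5.33 on control for fibroblasts, from 2.50 to 3.30 and 2.07 to 2.87 for endothelium and from 3.96 to 4.39 and 3.51 to 4.20 for smooth muscle. CDH5, CNN1 and DES were not tested. Of the immune lists, T cell markers were negative in 4 of 5 genes with a median of -0.24 and B and plasma cell markers in 3 of 3 with -0.37. In calves 21, 23, 24 and 25 the T cell medians were -0.91, -0.16, 0.75 and 0.11. Those of B and plasma cells were -0.61, 0.09, -0.28 and -0.67. Macrophage and dendritic cell markers were positive in 3 of 5 with a median of 0.20, which ran from -1.52 in calf 21 to 1.06 in calf 25. The summed levels were -0.15 to 0.79 on WP and -0.26 to 0.97 on control for T cells, 1.07 to 1.20 and 1.11 to 2.14 for B and plasma cells, and 1.61 to 2.62 and 1.68 to 3.12 for macrophages. CD3E, CD4, MS4A1, CD79A, POU2AF1, CD163 and ITGAM were not tested. Epithelial markers were higher in 8 of 14 with a median of 0.11. Their medians were 0.53, 0.22, -0.20 and -0.13 in calves 21, 23, 24 and 25, and their median row difference was 0.25. Signs by calf were thus those of the members' medians. An unadjusted p under 0.05 by limma was found for 2 of the 14, both lower on WP: SPINK5 at -0.94 and IVL at -1.07. The part of cell composition in the members' values was not tested, and in whole tissue fewer cells of a type and less RNA per cell cannot be told apart.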

How the data were processed

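Labelled Cy3 cRNA from 500 ng of total RNA of each sample was hybridised to 1 bovine array, per the labels. The deposited scanner files hold spot intensity and a processed signal already corrected for background; the file headers name Agilent Feature Extraction 11.0.1.1, while version 9.5 stands in the submitters' processing notes. The authors' deposited table holds log2 values, and set against the scanner files each column equalled the log2 processed signal less an offset of its array (medians from -3.08 to -2.27, not centred by gene). It served as an alternative.

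From each array's log2 processed signals their 75th percentile was subtracted, without 536 control spots and 97 spots flagged as outliers by the scanner software, and spots of a probe were averaged. Probes called well above background on 4 or more arrays, 10236 of 15008 (68.2%), were fitted in R 4.3.3 by limma 3.58.1 (moderated two-sided tests, calf as fixed block), and adjusted by Benjamini-Hochberg. A gene is its brightest tested probe. Names were updated through RefSeq (ARS-UCD2.0, names only), and 17 members have changed symbol. The pairing comes from the labels: deviations of a calf's 2 arrays correlated at 0.0090, 0.20, 0.06 and 0.05 for calves 21, 23, 24 and 25. Slide row was read from the array positions on the slide and fitted beside calf and diet. The number of arrays limits the precision. The fit was tested on simulated data with independent residuals, no row pattern and planted changes larger than most members' differences. That test therefore does not cover the row pattern or differences as small as those of most members.

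Genes were named by rule: the 3 of smallest p in each complex and among assembly factors, the paired isoforms, the central subunits and those of 1 sign in 4 of 4 calves. COX7B2 and the genes named only for their design record were added after their values were seen. One gene that this rule takes is not reported here. In the related lists, genes of smallest p or of special role were picked after their values were seen. Members and lists were chosen with earlier results of these data known. Alternatives covered background correction, scaling, the authors' table, the filter, the block, slide row, the prior, the probe and assembly-factor choices and each calf left out. The comparison with all tested probes of mean level above 0 was chosen after seeing the data.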

Additional observations from a re-analysis of the deposited data

Results flagged for a closer look

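In 7 of 96 groups of 4 arrays examined for the named genes and the complexes, the highest or lowest array stood apart from the nearest by more than Dixon's 95% critical value, a share of the group's range; chance gives about 1 in 20. On the control array of calf 21, COX4I1 was at 5.04, COX6B1 at 5.74 and COX7A2L at 3.19, with the nearest control arrays at 5.39, 6.42 and 3.80. On the WP array of calf 24, COX4I2 was at -2.46 and NDUFAF4 at -1.36, above the nearest WP arrays at -4.99 and -2.30, and NDUFS4 was at 2.77, below the nearest at 2.99. On the WP array of calf 25, NDUFA10 was at 2.13, with the nearest WP array at 2.66.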

How the results depend on the processing

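No probe and no member passed the adjusted threshold for diet in any of the 18 alternatives, fitted by limma, and the members' median stayed below that of all tested probes in each. Without calf 25 the members' median was 0.0036, and with the other calves left out in turn it ran from -0.10 to -0.06. Without the replicate block the count of probes called for diet was 0, and 785 in place of 715 had an unadjusted p under 0.05; with slide row added to the block these were 0 and 1017. The block changed no other call for diet. For slide row, 0 probes passed with the calf block, 8 without the replicate block, 92 with normexp and 335 with a trended, robust prior, and no member was among them. Quantile scaling moved the split of unadjusted calls from 536 higher and 179 lower to 192 and 336, and the median of all tested probes from 0.09 to -0.02, while the members' median was -0.04. Of 42 named members, 21 kept their sign in every alternative; 41 of 711 alternative values turned sign and 19 moved by more than the spread between calves. Probes under background on most arrays limit what can be said of 9 members.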
